A study of Mus musculus with 6 samples.

Results

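Avil, Runx3, Prdm12, Sox10 and Erbb3 are genes of the sensory ganglia and of the Schwann cell lineage, cell types that lie beside the spinal cord and not within it. The 5 were picked by symbol from a table of 56805 genes, as traces of such cells in motor neuron samples, and all 5 were among the 21972 genes with enough reads to test. The samples were mouse motor neurons at embryonic stage e12.5, 3 libraries from the cervical and 3 from the thoracic spinal cord, each of control genotype and untreated. The series compares these regions in a study of Hox5 genes. The labels do not say what control means for any allele, nor how the cells were isolated, nor whether a library came from 1 embryo or several. P-values therefore measure the spread between these libraries, which may be partly technical.

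Dorsal root ganglia hold the cell bodies of sensory neurons for touch, pain, itch and muscle stretch, with satellite glia around them, and Schwann cell precursors travel along the nerves that leave the ganglia and the cord. Both lineages come from the neural crest. Avil encodes advillin, an actin-binding protein of the gelsolin and villin family that is typical of peripheral sensory neurons. Runx3 is a transcription factor of proprioceptive (muscle stretch) neurons, and Prdm12 a zinc finger protein needed for pain neurons. Sox10 is the transcription factor that maintains crest-derived glia, and Erbb3 is the receptor through which Schwann cell precursors respond to neuregulin from axons. None of these is fully private to the periphery: Prdm12 is also active in the p1 progenitors of V1 interneurons in the cord, and Sox10 and Erbb3 also in the oligodendrocyte lineage.

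Library totals were 32103071 to 33790634 counts, apart from thoracic replicate 1 with 53186131. Levels below are CPM (counts relative to the library total) scaled by TMM, a between-library normalization whose factors were 0.989 to 1.01. Motor neuron genes were present in every library: Mnx1, a transcription factor that defines motor neurons, lay at 226, 134 and 196 CPM in cervical replicates 1, 2 and 3 and at 197, 137 and 165 CPM in thoracic replicates 1, 2 and 3. The 10 motor neuron genes listed summed to 1170, 590 and 787 CPM in cervical replicates 1, 2 and 3. In the thoracic ones they summed to 1200, 849 and 1210 CPM, so replicate 2 was lowest in each region. Interneuron genes were present as well. The 10 p1 and V1 genes listed summed to 1690, 1680 and 1670 CPM in cervical and 1280, 1360 and 1370 CPM in thoracic replicates, above the motor neuron sum in every library. The share of each cell type was not tested.

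Measured against the motor neuron genes, the ganglion and Schwann genes were scarce. Per kilobase of exon, Prdm12 was the most abundant of the 5 with a mean of 4.61 CPM per kb over the 6 libraries (3.23 to 5.59), against 78.2 CPM per kb for Mnx1. Sox10 followed with 0.997 CPM per kb (0.518 to 1.42), Avil with 0.753 (0.442 to 1.27) and Erbb3 with 0.751 (0.288 to 1.10). These 3 ranges overlap, so no order among them can be read. Runx3 was the lowest at 0.133 CPM per kb, and its 0.0248 to 0.375 lay below the range of every other member except Erbb3, which it overlaps. In bulk RNA, fewer cells of a type and less RNA per cell cannot be told apart.

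**Figure D1:**
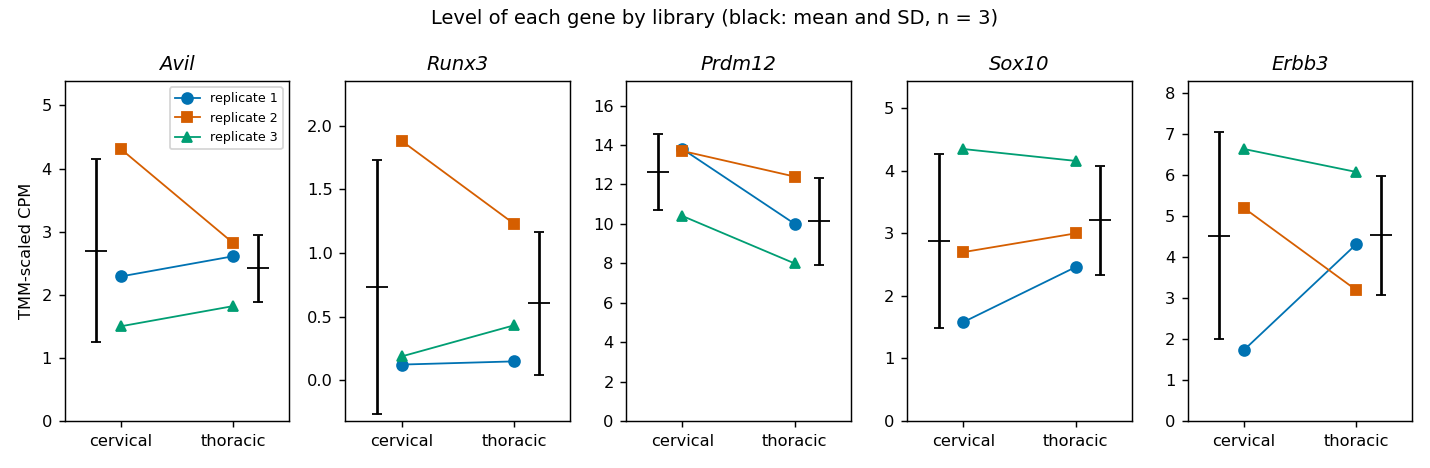
Level of each gene in TMM-scaled CPM (y axis, own scale per panel) in cervical and thoracic libraries (x axis). Symbols and lines join the libraries that share a replicate number, and black bars are the mean and SD of 3 libraries (for cervical Runx3 the SD exceeds the mean). Regions overlap for all 5 genes, Runx3 is highest in replicate 2 and Sox10 and Erbb3 in replicate 3 of each region.

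None of the 5 genes differed between the regions, in a data set in which 0.542% of all tested genes did (119 of 21972, adjusted p below 0.05, edgeR quasi-likelihood test). At an unadjusted p below 0.05, which 8.47% of tested genes reached, the count was also 0 of 5. Limma-voom, which called 0.487% of all genes, called 0 of 5. DESeq2 called 2.49% of the 16432 genes to which it gave an adjusted p, and 0 of the 4 members among them (Runx3 had none). No member had 3 cervical values all above or all below the 3 thoracic ones, as 13.7% of tested genes had. The sample titles number the replicates in each region, without saying that libraries of the same number belong together. With that number as a block 1.97% of all genes (432) and again 0 of the 5 members were called. In the same blocked model 0.865% of all genes (190) differed between replicate numbers 1, 2 and 3. Of the members, Avil, Prdm12, Sox10 and Erbb3 did not pass between numbers, and Runx3 is described next.

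Runx3 reads came mostly from replicate 2. The gene lies on chromosome 4 from 134847963 to 134905301 (mm39, plus strand). It had 4, 64 and 6 reads in cervical replicates 1, 2 and 3 and 8, 40 and 14 reads in thoracic replicates 1, 2 and 3, which is 0.124, 1.88 and 0.188 CPM and 0.149, 1.23 and 0.432 CPM. Cervical and thoracic replicate 2 stand above the other 4 libraries, and the regions overlap. Counting error alone (95% exact binomial interval) leaves 1.44 to 2.39 CPM in cervical replicate 2 and 0.0337 to 0.317 CPM in cervical replicate 1. The intervals of this report treat each read as a separate molecule. In the blocked fit replicate 2 was above replicate 1 by 3.47 and above replicate 3 by 2.33 on the log2 scale, higher in both regions, with an edgeR adjusted p of 0.0303 that became 0.056 with library totals in place of TMM and 0.0545 with limma-voom. Runx3 met the low-count filter through cervical replicate 2 and thoracic replicates 2 and 3 only, and this test was added after the values were seen, so that p is no support for the difference. Its biological coefficient of variation in the unblocked fit was 75.9%, against 32.7% for the trend at that abundance. The region means were 0.729 ± 0.993 CPM (cervical) and 0.602 ± 0.558 CPM (thoracic, SD, n = 3 each), with a log2 fold change, cervical minus thoracic, of 0.34 (SE 0.94, edgeR adjusted p = 0.971, 95% interval -1.73 to 2.40). Its sign rests on single libraries: leaving out cervical replicate 2 gave -1.89, thoracic replicate 1 -0.18 and thoracic replicate 2 1.40. The 7 macrophage genes listed, of which 4 were tested and 0 differed between replicate numbers in edgeR, summed to 4.12, 11.6 and 8 CPM in cervical and 4.47, 6.95 and 4.13 CPM in thoracic replicates. That sum was highest in replicate 2 of each region and the motor neuron sum, given above, lowest there. Of the 10 motor neuron genes, 7 differed between replicate numbers (edgeR adjusted p below 0.05), against 0.865% of all tested genes. The part of either cell type in the level of Runx3 was not tested.

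Avil had its highest value in the same library. The levels were 2.29, 4.31 and 1.5 CPM in cervical replicates 1, 2 and 3 (74, 147 and 48 reads) and 2.61, 2.82 and 1.82 CPM in the thoracic ones (140, 92 and 59 reads). Replicate 2 was highest and replicate 3 lowest in each region, and the thoracic values lie inside the cervical range. The difference between replicate numbers did not pass (replicate 2 above replicate 3 by 1.09 on the log2 scale, edgeR adjusted p = 0.381). The means of 2.7 ± 1.45 and 2.42 ± 0.527 CPM (SD, n = 3) gave a log2 fold change of 0.16 (SE 0.35, edgeR adjusted p = 0.96, interval -0.62 to 0.94), which was -0.35 without cervical replicate 2. Avil lies on chromosome 10 from 126836578 to 126856863 (mm39, plus strand) and shares 165 of its 3398 exonic bases with Tsfm on the opposite strand. Tsfm had a mean of 419 counts, and since the strand setting of the counting is not given, reads in that stretch could belong to either gene.

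The stretch around the start sites of the members was searched for the core letters bound by RUNX factors, ACCACA or TGTGGT on the other strand. Sequences come from RefSeq on GRCm38.p6, another build than the mm39 of the counts, and 3 of the 5 members had an entry (Avil, Prdm12 and Runx3, the last with a pair of starts). The window of 300 bases from 250 before to 50 after the start held the core in Avil, with its first base 25 bases before the start, and at 134 and 126 bases before the upstream Runx3 start. Windows of Prdm12 and of the downstream Runx3 start held none, and 16.8% of 32851 promoter windows hold at least 1. The SOX cores ACAATG (12.6% of windows) and ACAAAG (18.7%) were in none of the 4 windows on either strand. The 250 bases before each start are shown 5′ to 3′ on the plus strand, with the core in capitals, for Avil at chr10:127000459-127000708 and for Runx3 at chr4:135120395-135120644. A match of letters is a description and does not show binding.
Avil: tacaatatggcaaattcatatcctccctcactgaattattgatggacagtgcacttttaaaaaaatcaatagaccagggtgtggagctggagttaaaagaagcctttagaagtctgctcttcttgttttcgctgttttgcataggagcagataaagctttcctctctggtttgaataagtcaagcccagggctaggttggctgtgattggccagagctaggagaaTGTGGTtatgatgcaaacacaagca
Runx3: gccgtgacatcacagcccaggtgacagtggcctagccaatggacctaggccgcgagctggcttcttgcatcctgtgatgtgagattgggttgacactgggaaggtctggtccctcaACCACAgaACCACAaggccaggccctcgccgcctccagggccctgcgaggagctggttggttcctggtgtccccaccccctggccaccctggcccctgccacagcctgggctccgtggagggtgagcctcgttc

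By the root mean square difference of centred log2 CPM over the 6 libraries, the named genes most like Runx3 out of 17082 were Scn7a (0.267), Pirt (0.423) and Pappa2 (0.726). Scn7a encodes a sodium channel relative found in sensory neurons and peripheral glia, and lay at 0.433, 6.27 and 0.844 CPM in the cervical and 0.447, 3.8 and 1.05 CPM in the thoracic replicates. Pirt encodes a membrane protein of dorsal root ganglion neurons that modulates Trp channels, and lay at 0.464, 6.42 and 0.438 CPM and at 0.671, 2.30 and 1.33 CPM. Both were highest in replicate 2 of each region, as the choice by likeness requires, so no test is given. For Avil the closest genes were Rnf128 (0.166) and a pair of genes listed only by Ensembl identifier (0.0601 and 0.181). Avil ranked 170 in likeness to Runx3 (1.24), while Runx3 ranked 16995 in likeness to Avil, among the least alike.

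Of 20 other sensory neuron genes listed, 19 were in the table and 15 were tested. In edgeR 0 of the 15 differed between replicate numbers (P2rx3 had an adjusted p of 0.107). Cervical replicate 2 was the highest library for 6 of the 15, and cervical replicate 1 for 4. Over all tested genes these shares were 17.3% and 17.4%. Among the 13249 with a mean below 15 CPM, which Scn9a, Pou4f1 and Shox2 exceed, they were 20.6% and 16.9%. P2rx3, an ATP-gated channel of pain neurons, stood at 2.91, 5.89 and 1.75 CPM in cervical and at 2.78, 5.48 and 3.18 CPM in thoracic replicates, highest in replicate 2 of each region. P2rx3 and 2 sensory genes too low to test, Scn10a and Trpv1, were chosen after their values were seen. Scn10a, a sodium channel of pain neurons, had 134 reads in cervical replicate 2, 0 in cervical replicate 1 and thoracic replicate 3, and 5 to 20 elsewhere. Trpv1, the capsaicin receptor, had 2 reads in cervical replicate 2, 1 in thoracic replicate 1 and 0 in the other 4 libraries, where 0 reads allow a level of up to 0.0919 to 0.0938 CPM (3 reads). The 4 most abundant sensory genes were more even. Scn9a, a sodium channel of pain neurons, had 52.0 ± 9 CPM in the cervical and 73.6 ± 11.3 CPM in the thoracic region, and Pou4f1, which dorsal spinal interneurons also express, had 57.3 ± 5.50 and 49.6 ± 5.60 CPM. Shox2 had 15.2 ± 3.36 and 19.9 ± 5.71 CPM, and Six4 10.6 ± 1.15 and 11.2 ± 0.615 CPM (SD, n = 3). Whether the RNA of these 4 genes came from ganglion cells or from cells of the cord was not tested.

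Between the regions, 0 of these 15 genes passed in edgeR and in limma-voom, 4 were below an unadjusted p of 0.05 (8.47% of all genes were), and DESeq2 called 3 (2.49% of all). The list's median log2 fold change was 0.19, against 0.00833 for all tested genes. It was 0.33 without thoracic replicate 1 and 0.11 without thoracic replicate 3, each over the 17 genes tested in that fit. With the replicate block 3 were called, 2 of them towards the cervical side. Among the 3, Runx1 rose in cervical libraries (log2 fold change 1.35, blocked edgeR adjusted p = 0.0109), and Scn9a rose in thoracic ones (-0.50, 0.0256). Without the block their adjusted p were 0.343 and 0.205. Runx1, the relative of Runx3 that marks pain neurons and is also found in some cervical motor neurons, was at 5.51 CPM in each of cervical replicates 1 and 2, at 1.66 CPM in cervical replicate 3 and at 1.62, 2.36 and 0.863 CPM in the thoracic ones.

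**Figure D2:**
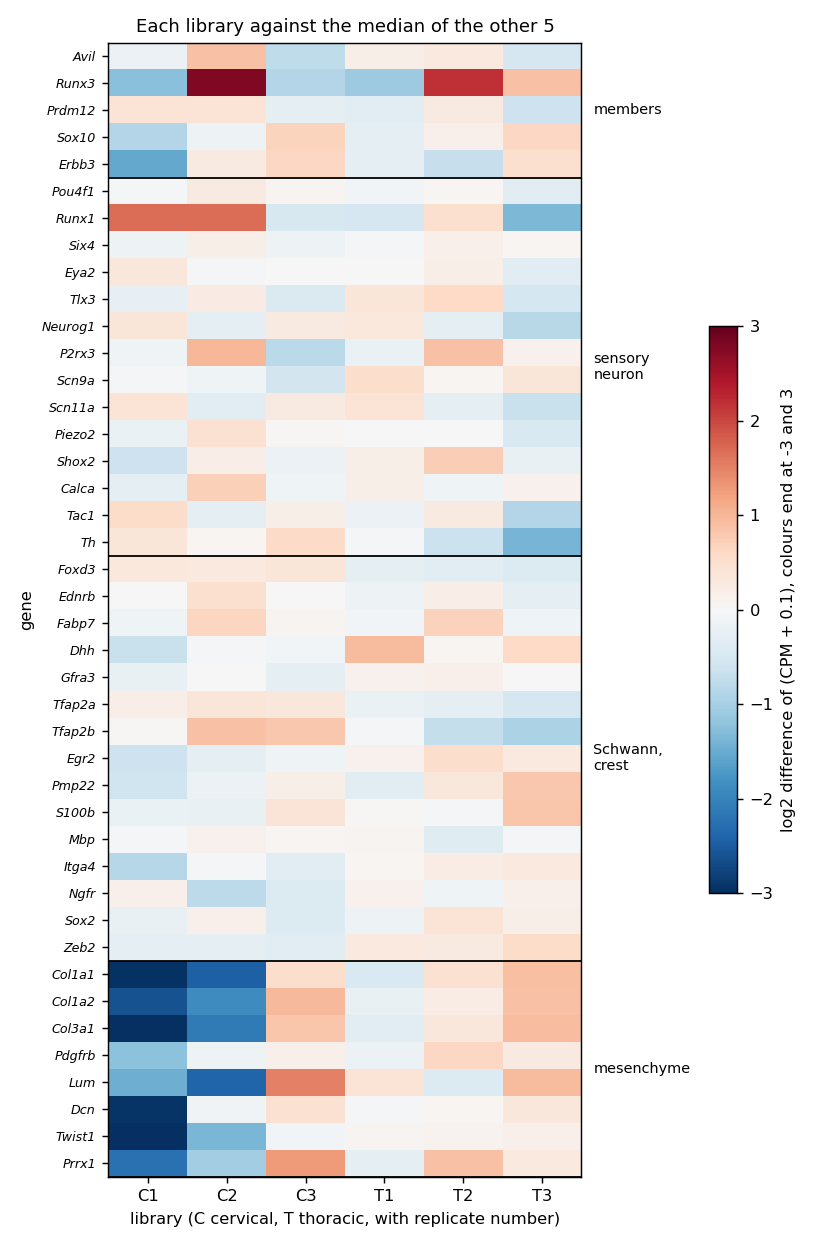
Heat map of log2(CPM + 0.1) in each library (columns, C cervical and T thoracic with the replicate number) minus the median of the other 5 libraries, for tested genes of 4 lists (rows). Runx3 is high in C2 and T2, Sox10 and Erbb3 are high in C3 and T3, and most mesenchyme genes are low in C1 and C2.

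Prdm12 was lowest in replicate 3 of each region, as Avil was, and was the member most like Avil (root mean square difference 0.378, rank 742 of 17082). Avil in turn ranked only 12373 in likeness to Prdm12, so no shared pattern is read from this. Prdm12 stood at 13.8, 13.7 and 10.4 CPM in cervical and at 10.0, 12.4 and 7.99 CPM in thoracic replicates, from 259 to 539 reads. The cervical library exceeded the thoracic one of the same number in all 3 pairs, by 0.46, 0.14 and 0.38 on the log2 scale, though the regions overlap. The means of 12.6 ± 1.95 and 10.2 ± 2.23 CPM (SD, n = 3) gave a log2 fold change of 0.31 (SE 0.18, edgeR adjusted p = 0.723, interval -0.07 to 0.70). With the block it was 0.32 (SE 0.13, adjusted p = 0.348), at an unadjusted edgeR p of 0.026, so the difference did not pass over all genes. It stayed positive in all 9 fits that left out a library or a replicate pair (0.17 to 0.48). The gene lies on chromosome 2 from 31530049 to 31545807 (mm39, plus strand) and shares 200 of 2471 exonic bases with the antisense gene Gm13425 (mean 174 counts), which the counting may not separate.

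Genes of the p1 and V1 class were read because spinal cells of that class also use Prdm12, though not every gene listed is confined to them. Of 10 tested, 3 rose in cervical libraries and none in thoracic ones in edgeR: Foxd3, Pax2 and Slc6a5, by 0.38, 0.33 and 0.45 on the log2 scale (edgeR adjusted p = 0.0207, 0.0462 and 0.0417). Of all tested genes 0.542% passed in edgeR, 0.487% in limma-voom and 1.97% with the block. Limma-voom also called 3, and the block added Foxp2 (0.37, blocked edgeR adjusted p = 0.022, 0.692 without it). The count of 3 was 1 without cervical or thoracic replicate 1 and 0 without any of the other 4 libraries. The median log2 fold change over the 10 was 0.25 (0.38 without thoracic replicate 2) and 9 lay above 0. En1, which defines V1 interneurons, stood at 94.1 ± 6.27 and 82.2 ± 2.94 CPM (log2 fold change 0.20, edgeR adjusted p = 0.38). The list summed to between 1670 and 1690 CPM in the cervical and between 1280 and 1370 CPM in the thoracic samples, and its part in the level of Prdm12 was not tested. Of 13 other Prdm genes tested, 0 passed in edgeR and in limma-voom. An unadjusted edgeR p below 0.05 was reached by 3 (8.47% of all genes), and DESeq2 called 3 (2.49% of all). The block called Prdm8 higher in cervical (blocked adjusted p = 0.0428) and Prdm16 higher in thoracic libraries (0.047). The genes closest to Prdm12 in pattern were Pcdhb4 (0.0821), a gene listed only by Ensembl identifier (0.0924) and Zfand2b (0.0979).

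Sox10 was highest in replicate 3 of each region. It stood at 1.58, 2.7 and 4.35 CPM in cervical replicates 1, 2 and 3 and at 2.46, 3 and 4.16 CPM in thoracic replicates 1, 2 and 3 (51 to 139 reads). In each region replicate 1 was lowest and replicate 3 highest, and the 95% counting intervals of cervical replicates 1 (1.18 to 2.08 CPM) and 3 (3.65 to 5.13 CPM) did not meet. In the blocked fit replicate 3 was above replicate 1 by 1.08 on the log2 scale, which did not pass over all genes (edgeR adjusted p = 0.26). The region means were 2.87 ± 1.39 and 3.21 ± 0.87 CPM (SD, n = 3), with a log2 fold change of -0.15 (SE 0.34, edgeR adjusted p = 0.961, interval -0.90 to 0.60). Leaving out cervical replicate 1 turned it to 0.14, and leaving out thoracic replicate 3 to 0.08. Sox10 lies on chromosome 15 from 79039108 to 79049440 (mm39, minus strand), and no other gene of the table overlaps it.

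Erbb3 stood at 1.73, 5.19 and 6.63 CPM in cervical and 4.31, 3.19 and 6.07 CPM in thoracic replicates (56 to 231 reads). As for Sox10, replicate 3 was highest in each region and cervical replicate 1 the lowest of all 6, but replicates 1 and 2 changed places between the regions. The within-pair differences, cervical minus thoracic, were -1.31, 0.70 and 0.13 on the log2 scale, and those of Sox10 were -0.64, -0.16 and 0.06. Mean Erbb3 was the same in both regions, 4.52 ± 2.51 and 4.52 ± 1.46 CPM (SD, n = 3), with a log2 fold change of 0.00 (SE 0.40, edgeR adjusted p = 1, interval -0.88 to 0.88). Leaving out cervical replicate 1 gave 0.39, and leaving out cervical replicate 3 gave -0.38. The difference between replicate numbers did not pass (edgeR adjusted p = 0.521). Erbb3 lies on chromosome 10 from 128403392 to 128425521 (mm39, minus strand).

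Among the 5 genes, Sox10 and Erbb3 had the most similar patterns (root mean square difference 0.318). Of 17082 genes, Sox10 ranked 29 in likeness to Erbb3, and Erbb3 ranked 230 in likeness to Sox10. The gene closest to Sox10 was Rgs5 (0.0855), a gene typical of pericytes, the contractile cells around small vessels, at 4.21, 6.48 and 11.5 CPM in cervical and 6.62, 8.55 and 10.1 CPM in thoracic replicates. Smim5 (0.131) and Ctsh (0.135) were next. For Erbb3 the closest were Spef2 (0.219), Tmem144 (0.233) and Pcp4l1 (0.241).

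Mesenchyme genes were highest in the libraries where Sox10 and Erbb3 were. The 8 listed, fibroblast and connective tissue genes such as Col1a2 and Col3a1, summed to 25.5, 78.6 and 224 CPM in cervical and 140, 170 and 226 CPM in thoracic replicates, lowest in cervical replicate 1 and highest in replicate 3 of each region. Col3a1 was at 5.82, 12.2 and 74.8 CPM and at 41.8, 53.2 and 79.8 CPM. All 8 were tested, and Twist1 was below the 3 reads used as a floor in cervical replicate 1. In edgeR 0 passed between the regions (0 at an unadjusted p below 0.05), and the block called Col3a1 and Col1a1, both higher in thoracic libraries (blocked adjusted p = 0.0331 and 0.0122). Between replicate numbers 3 of the 8 passed, Col1a1, Col1a2 and Col3a1, against 0.865% of all tested genes. The 6 endothelial genes summed to 4.92, 8.67 and 11.7 CPM and to 12.7, 8.18 and 9.90 CPM. The part of these cell types, or of tissue carried along with them, in the levels of Sox10 and Erbb3 was not tested.

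Other Schwann and crest genes were read from a list of 21, of which 17 were tested. Cdh19, a cadherin of Schwann cell precursors and too low to test, had 2, 4 and 25 reads in cervical and 3, 4 and 28 reads in thoracic replicates. Cdh19 was chosen after its values were seen, and replicate 3 was highest in each region. The 2 of the 17 that differed between replicate numbers in edgeR were highest in replicate 2 instead. Ednrb, the endothelin receptor of crest cells, had an adjusted p of 0.0178 and Fabp7 of 0.000307, and replicate 2 was above replicate 3 by 0.47 and 0.66 on the log2 scale. Prss56, from a separate list of 5 genes of boundary cap cells, which sit where nerve roots meet the cord, was too low to test. It was at 0.0929, 0.234 and 0.75 CPM and at 0.224, 0.123 and 0.987 CPM, highest in replicate 3 of each region like Cdh19. Of the other genes in that list, only Hey2 was highest in replicate 3 of both regions. Among thoracic libraries Egr2 peaked in replicate 2 (3.22 CPM, 2.74 in replicate 3) and Mfap4 in replicate 1 (14.7 CPM, 13.9 in replicate 3). Of the 21 Schwann and crest genes, Fabp7, which radial glia express, and Ngfr, which motor neurons express, were abundant. They had 208 ± 56.7 against 209 ± 64.4 CPM and 241 ± 66.4 against 302 ± 17.3 CPM in cervical and thoracic libraries.

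In edgeR 2 of the 17 passed between the regions, against 0.542% of all genes, and 6 had an unadjusted p below 0.05, against 8.47%: Foxd3, given above (also a V1 gene), rose in cervical libraries, and Zeb2, also a gene of motor neurons, rose in thoracic ones (-0.40 on the log2 scale, edgeR adjusted p = 0.0484). At 231 ± 5.60 and 177 ± 8.21 CPM Foxd3 was even within each region. Neither call held without cervical replicate 2, cervical replicate 3, thoracic replicate 2 or thoracic replicate 3 (adjusted p of 0.0545, 0.145, 0.0608 and 0.078 for Foxd3, and 0.131, 0.219, 0.0675 and 0.095 for Zeb2), and Zeb2 was also lost without cervical replicate 1 (0.0715) and thoracic replicate 1 (0.0631). With the block 4 were called, against 1.97% of all genes. The further ones were Tfap2a (0.43, blocked edgeR adjusted p = 0.028) and Tfap2b (1.11, 0.0225), transcription factors of crest and of dorsal spinal interneurons. Both were higher in cervical libraries. Tfap2b stood at 74.4, 133 and 128 CPM in cervical and 72.4, 45.6 and 38.3 CPM in thoracic replicates, with an unblocked adjusted p of 0.104. The median log2 fold change over the 17 was -0.26. Without cervical replicate 1 it was 0.13, over the 19 genes of the list tested in that fit. Regions did not overlap for 8 of the 17, against 13.7% of all tested genes.

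Erbb3 binds neuregulins but has little kinase activity of its own and signals with Erbb2. Erbb2 stood at 12.4, 18.3 and 14.4 CPM in cervical and 12.7, 20.2 and 14.1 CPM in thoracic replicates, at its highest in replicate 2 of each region, where Erbb3 was not. Per kilobase the mean over 6 libraries was 2.95 CPM per kb for Erbb2 and 0.751 for Erbb3. Erbb4, the neuregulin receptor of neurons, was far above both with 21.6 CPM per kb. It stood at 291, 308 and 302 CPM in cervical and 159, 271 and 269 CPM in thoracic replicates, with no overlap of the regions. Its log2 fold change of 0.37 (SE 0.16) did not pass (edgeR adjusted p = 0.556), and was 0.15 without thoracic replicate 1. Egfr had 0.171 CPM per kb and was, like Sox10, highest in cervical replicate 3, at 3.66 CPM against 0.991 to 2.19 CPM elsewhere. In edgeR 0 of these 3 receptors passed and 1 (Erbb4) had an unadjusted p below 0.05, as 8.47% of all genes had. Limma-voom also gave such a p for 1, and DESeq2 called 0.

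Ligands were present in both regions. Nrg1, the neuregulin that axons offer to Schwann cell precursors and that motor neurons express, stood at 155, 72.5 and 101 CPM in cervical and 136, 106 and 155 CPM in thoracic replicates, lowest in replicate 2 of each region, where the motor neuron genes were lowest as well. The region difference of -0.28 on the log2 scale (SE 0.22) did not pass in edgeR (adjusted p = 0.839). Per kilobase Nrg1 had 7.83, Nrg3 5.80, Nrg2 2.63, Hbegf 1.94 and Tgfa 1.71 CPM per kb. Of 11 ligand genes 7 were tested, and 0 passed in edgeR, DESeq2, limma-voom or with the block, where 1 had an unadjusted p below 0.05. Areg, Btc, Epgn and Ereg were too low to test. Of 11 modifiers and adaptors of the pathway, all tested, 0 passed with these tools. An unadjusted edgeR p below 0.05 was reached by 2, against 8.47% of all genes. The most abundant were Pik3r1, a subunit of PI3 kinase (312 ± 3.07 and 367 ± 51.5 CPM), Adam10 and Bace1, proteases of neuregulin and other membrane proteins (177 ± 12.2 and 173 ± 5.54 CPM, and 123 ± 6.84 and 129 ± 6.77 CPM), and the adaptor Grb2 (142 ± 7.99 and 135 ± 2.56 CPM).

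**Figure D3:**
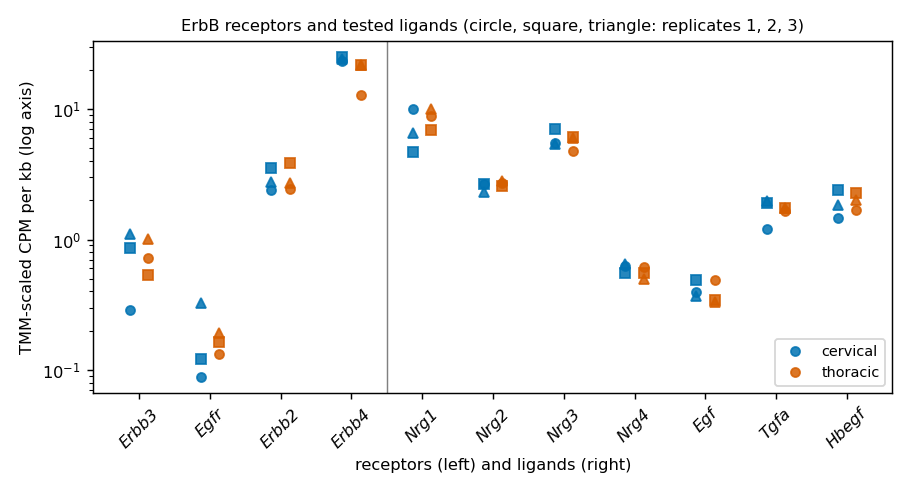
TMM-scaled CPM per kilobase of exon (y axis, log scale) of the ErbB receptors and of the 7 tested ligands (x axis), with 1 symbol per library (blue cervical, orange thoracic). Erbb4 and Nrg1 lie above Erbb3, whose 6 libraries spread from 0.288 to 1.10 CPM per kb.

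Families of the other members were examined for the region contrast too. Over all genes 0.542% passed in edgeR, 0.487% in limma-voom, 2.49% in DESeq2 and 1.97% with the block. An unadjusted edgeR p below 0.05 was reached by 8.47% of all genes. Of 9 Runx relatives and cofactors, 0 passed in edgeR and limma-voom, 2 had an unadjusted p below 0.05, and DESeq2 and the block called Runx1 and Runx1t1, both higher in cervical libraries (Runx1t1 by 0.27 on the log2 scale, blocked edgeR adjusted p = 0.0163). Cbfb, the shared partner of Runx proteins, was even across libraries with 37.0 ± 0.917 and 35.7 ± 1.61 CPM. Of 5 Sox9-related and partner genes, 0 passed with these 3 tools or the block, and 1 had an unadjusted edgeR p below 0.05. Sox9 had 22.4 and Sox8 1.92 CPM per kb, both above the 0.997 of Sox10. Of 6 tested gelsolin and villin relatives of Avil, 0 passed in the same 4 fits and 2 had an unadjusted edgeR p below 0.05. Flii, the most abundant relative, had 16.6 CPM per kb, Gsn 2.81, Vill 1.28 and Svil 1.17, all above the 0.753 of Avil.

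**Figure D4:**
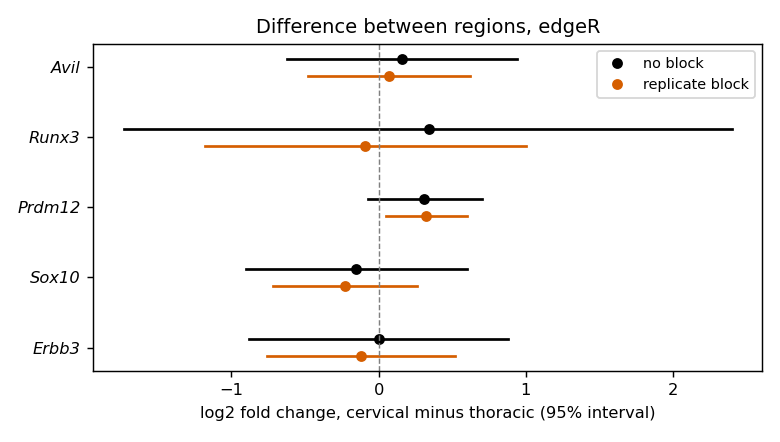
Log2 fold change, cervical minus thoracic, with its 95% interval (x axis) for each gene (y axis), from edgeR without a block (black) and with the replicate number as a block (orange). Without the block every interval includes 0, and with it that of Prdm12 (0.05 to 0.60) does not, before adjustment over all genes.

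Oligodendrocyte lineage genes, cells of the cord that use Sox10 and Erbb3 later, did not share 1 pattern. Of 8 tested, Nkx2-2 rose in thoracic libraries, by -1.37 on the log2 scale cervical minus thoracic (edgeR adjusted p = 0.0104). In edgeR 0.542% of all tested genes were called, and 0 of this list were without cervical replicate 3. With the block Cspg4 rose in thoracic libraries as well (-0.95, blocked edgeR adjusted p = 0.00796, 0.262 without it). Neither Nkx2-2 nor Cspg4 is confined to this lineage, so these calls are not read as a difference in it. Olig2, a factor of motor neuron and oligodendrocyte progenitors, stood at 5.94, 5.36 and 3.72 CPM in cervical and 4.16, 7.14 and 4.87 CPM in thoracic replicates, lowest in cervical replicate 3, where Sox10 was highest. The list summed to 224, 291 and 226 CPM and to 238, 321 and 256 CPM, highest in replicate 2 of each region, and most of it was Ptprz1. Pdgfra, the receptor of oligodendrocyte precursors and also of mesenchyme, stood at 0.96, 1.82 and 5.81 CPM and at 3.24, 3.12 and 5.52 CPM, lowest in cervical replicate 1 and highest in replicate 3 of each region, like Sox10. Its difference between replicate numbers did not pass (edgeR adjusted p = 0.0964), and its part in the level of Sox10 was not tested.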

How the data were processed

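RNA of 6 libraries was extracted with a kit for small samples and depleted of ribosomal RNA, and stranded libraries were amplified with 15 PCR cycles, per the labels' protocols. The deposited values are raw counts of reads per gene, which the authors made using FastQC 0.11.9, STAR 2.7.5b and featureCounts 2.0.1 with mm39, as the submitters' processing notes list. Strand setting and annotation release: not given in the sources used here. Exon length in bases is a further column, per the file headers.

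Genes were kept by edgeR 4.0.16's filterByExpr (minimum count 10, R 4.3.3) and scaled by TMM, and regions were compared with the quasi-likelihood test over all 21972 genes kept, with Benjamini-Hochberg adjustment and a threshold of 0.05. The kept genes held 99.88% of counts. The SE is taken from the log2 fold change and the F statistic, and intervals use the fit's degrees of freedom. The scripts were tested on simulated data. Alternatives were DESeq2 1.42.0, limma-voom (limma 3.58.1), other scaling and filters, the replicate block, and fits that left out libraries. Same-numbered libraries were treated as pairs: correlations of deviations from group means were 0.207, 0.201 and 0.24 for numbers 1, 2 and 3 across 21972 genes. Between libraries of unlike number they were -0.214 to -0.0116. Deviations from the mean of 3 libraries sum to 0, so these values are not independent of each other. Within a region, chi-square per degree of freedom between libraries was 10.1 to 16.2, so no library was a copy of another. This does not show that they came from separate embryos.

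The genes, the lists and the naming rule were chosen with earlier results of these data known, and the test between replicate numbers and the fits without a replicate pair were added after the values were seen. Of each list the rule named genes called with or without the block and the 4 most abundant, and per member the 3 genes most like it with a mean of at least 1 CPM and a symbol not of the Gm or Rik type. Cbfb, Cdh19, En1, Ednrb, Nrg2, Olig2, Pdgfra, P2rx3, Scn10a, Sox8 and Trpv1 lie outside the rule and were chosen after their values were seen. A few genes of the lists enter the counts and sums and are not reported here by name.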

Additional observations from a re-analysis of the deposited data

How the results depend on the processing

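None of the 5 genes was called between the regions under any alternative that gave an adjusted p. Depth limits Runx3 most, with 4 to 64 reads a library. Of values whose direction turned, Runx3 was -0.09 with the replicate block and -0.01 with limma-voom. Over fits that left out a library or a replicate pair the log2 fold change ran from -0.35 to 0.45 for Avil, from -1.89 to 1.40 for Runx3 (8 fits, since without replicate 2 it failed the filter, as it did at a mean CPM of at least 1), from 0.17 to 0.48 for Prdm12, from -0.57 to 0.14 for Sox10 and from -0.38 to 0.39 for Erbb3. The number of genes called, 119, was 747 without a low-count filter, 432 with the replicate block, 409 with DESeq2 and from 2 to 206 in the fits that left out libraries. Sensory neuron genes called were 5, 3 and 3, not 0, without the filter, with the block and with DESeq2. Schwann and crest genes called were 6 without the filter, 4 with the block, and 1 both at a mean CPM of at least 1 and with limma-voom, not 2, and 0 to 3 in the fits that left out libraries. For ErbB ligands 1 was called without the filter and 0 otherwise. The difference of Runx3 between replicate numbers was lost with library totals only (adjusted p = 0.056) and with limma-voom (0.0545). Without a low-count filter Sox10 (0.0381) and Erbb3 (0.00774) also differed between numbers, and 788 genes did instead of 190. The block changed no region call of the 5 genes. The causes of these shifts were not tested.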
